A study of Homo sapiens with 9 samples.

Results

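The genes described here were low in DMSO-treated A375R cells and higher in every library treated with either of 2 related compounds. They were chosen by the deposited normalized counts themselves: a DMSO mean under 20, VHL-r and R4VPL3-1 means of at least 20 each and at least 2 times the DMSO mean, and all 6 treated values above all 3 DMSO values. Of the 62710 rows of the table, 30304 had a value above 0 in any library, 16703 of these had a DMSO mean under 20, and 91 genes are described. The cells, A375R, derive from the human melanoma line A375, resist the BRAF inhibitor PLX4032 and, by the study's methods, are cultured in that drug. R4VPL3-1 is a PROTAC-like molecule that joins a moiety binding the ubiquitin ligase RNF4 to a moiety binding the ubiquitin ligase VHL, and VHL-r is the VHL-binding moiety alone. There were 3 libraries each of cells given DMSO (labelled as wild type, with no dose), 10 µM VHL-r or 10 µM R4VPL3-1, the compounds for 2 h. Because the DMSO, VHL-r and R4VPL3-1 values chose the genes, every rise over DMSO given below is a description and was not tested.

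RNA polymerase II does not stop at the annotated end of a gene. The new RNA is cut after a poly(A) signal, most often AATAAA or ATTAAA, while the polymerase runs on for some distance before it is released. RNA from beyond an annotated end has the strand of the gene it came from. Where it is sequenced, a strand-specific count gives its reads to any gene that lies further along on the same strand. The libraries here were selected for poly(A) tails, which leaves out most RNA without one. How much RNA from beyond gene ends they hold was not tested. Low counts of a gene can come from its own promoter or, where such RNA is counted, from the gene before it. A table with 1 value per gene and library does not separate these. For this reason each member is given with its biotype and its neighbours on the same strand.

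The recovered totals lay between 26435568 and 32085626 reads per library, with a median of 28165279, so 1 normalized count was close to 1 read and the members were measured by few reads. In DMSO a member held between 3 and 60 reads over the 3 libraries together, with a median of 31. The cells had the melanoma genes SOX10, at 17550 ± 482 normalized counts in DMSO, and MITF, at 1722 ± 251 (SD, n = 3). The pigment genes differed. In DMSO, DCT was at 1347 ± 407, PMEL at 29.9 ± 7.88 and TYRP1 at 3.48 ± 1.77. TYR was at 0 in DMSO, and MLANA was listed at 0 in all libraries. Of 8 tested melanocyte and melanoma markers, 0 were called higher and 4 lower in each compound by the test across all genes described below. Over all genes tested, 9.51% were called lower in VHL-r and 11.8% in R4VPL3-1. In bulk RNA, fewer cells of a kind and less RNA per cell cannot be told apart.

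The 91 members together summed to 885, 958 and 1127 normalized counts in the 3 DMSO libraries. They summed to 3471, 3248 and 3306 in VHL-r and to 4120, 3500 and 3542 in R4VPL3-1. The groups thus stood at 990 ± 124, 3342 ± 115 and 3720 ± 346 (SD, n = 3), and the members held at most 0.0146% of all normalized counts in any library. The first R4VPL3-1 library was the highest of the 6 treated libraries for 45 of the 91 members, and DMSO library 3 was the highest of the 3 controls for 48. Mean levels ran from 1.00 to 19.4 in DMSO (median 10.1), from 20.1 to 113 in VHL-r (median 31.8) and from 20.1 to 131 in R4VPL3-1 (median 36.4). The ratio to DMSO had a median of 3.10 in VHL-r and 3.41 in R4VPL3-1, and 13 members were at least 5 times DMSO in both. For 30 members the lowest treated library was at least 2 times the highest DMSO library.

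**Figure D1:**
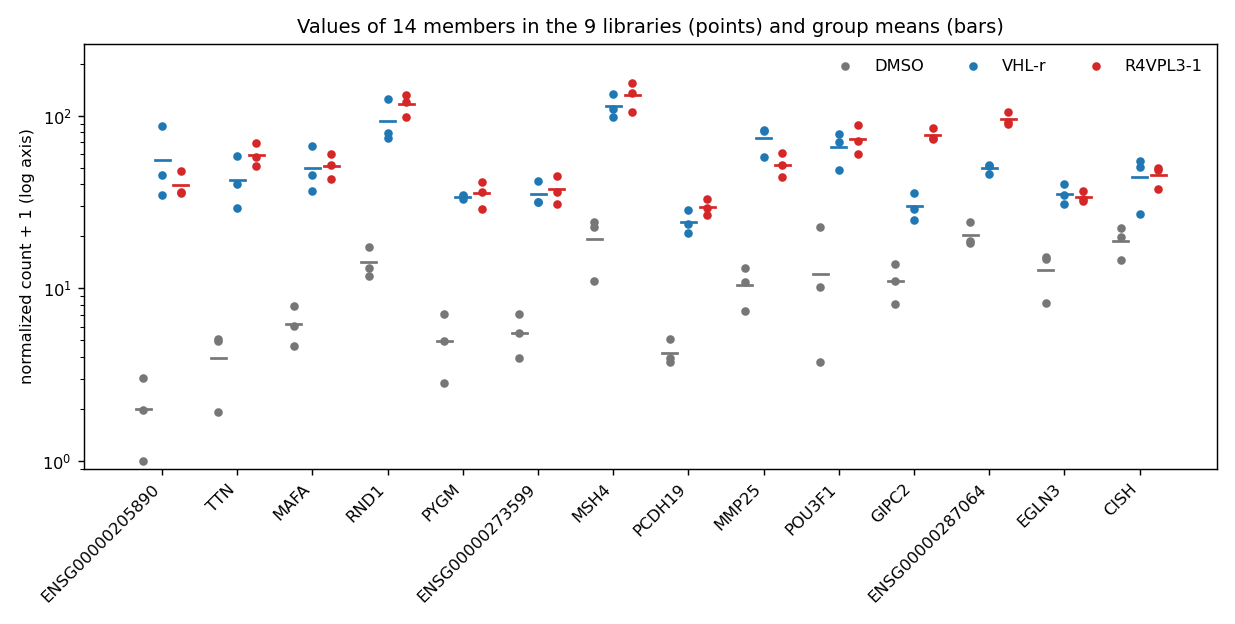
Normalized count + 1 on a log axis for 14 members, with 1 point per library and a bar at each group mean (grey DMSO, blue VHL-r, red R4VPL3-1, 3 libraries each): the 10 members with the highest ratio of treated to DMSO, then GIPC2, ENSG00000287064, EGLN3 and CISH. MSH4 reaches the highest level, with group means of 18.3, 113 and 131, and ENSG00000205890 the lowest DMSO mean, 1.00.

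Among the members that code for regulators of transcription or signalling, the levels in treated cells were several times those in DMSO. MAFA (chr8:143419182-143430732, minus strand), a basic leucine zipper transcription factor known from the insulin-producing beta cell, had 3.63, 6.89 and 5.07 normalized counts in DMSO. It had 44.03, 35.7 and 65.6 in VHL-r and 50.4, 41.8 and 58.9 in R4VPL3-1, so the lowest treated library stood far above the highest control. POU3F1, a POU-domain transcription factor of neural and Schwann cells (chr1:38043829-38046793, minus strand), varied more in DMSO, with 2.72, 21.6 and 9.13. Its treated values were 69.1, 47.3 and 76.8 in VHL-r and 58.8, 70.6 and 86.7 in R4VPL3-1, all above the DMSO libraries as the rule demands of every member. RND1, a small GTPase that acts against actin stress fibres (chr12:48857145-48865870, minus strand), had 16.4, 10.8 and 12.2 in DMSO, 78.1, 73.5 and 124 in VHL-r and 97.1, 130.3 and 119 in R4VPL3-1. RND1 was among the 2 members with a treated mean of at least 100, the other being MSH4. RASD1, a RAS-related GTPase that rises in response to glucocorticoids (chr17:17494437-17496395, minus strand), went from 4.57 ± 1.71 in DMSO to 25.2 ± 5.62 and 27.3 ± 3.77 (SD, n = 3). RASL10A, another RAS-like GTPase, went from a DMSO mean of 15.3 to 35.6 and 45.6.

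Several members code for secreted proteins or for receptors. FGF18, a fibroblast growth factor (chr5:171419647-171457626, plus strand), was at 6.25 ± 3.25 in DMSO, 24.2 ± 4.72 in VHL-r and 28.0 ± 5.13 in R4VPL3-1 (SD, n = 3). ARTN, a ligand of the GDNF family that signals through RET, was at 7.50 ± 5.21, 25.7 ± 2.67 and 27.7 ± 2.39. Both ligands were thus about 3 to 4 times DMSO in either compound, with ratios of 3.87 and 4.48 for FGF18 and 3.42 and 3.69 for ARTN. MMP25, a membrane-anchored matrix metalloproteinase (chr16:3046062-3060726, plus strand), had 6.36, 9.84 and 12.2 in DMSO, 80.1, 81.9 and 56.3 in VHL-r and 50.4, 59.7 and 42.8 in R4VPL3-1. SPOCK2, an extracellular matrix proteoglycan, went from 8.22 ± 4.84 to 20.2 ± 7.54 and 24.6 ± 7.87.

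A pair of members code for proteins best known from blood cells. TNFRSF13C, the receptor for the B-cell survival factor BAFF, had 6.36, 10.8 and 7.10 in DMSO, 20.01, 36.8 and 16.4 in VHL-r and 42.0, 23.9 and 16.1 in R4VPL3-1. SELPLG, the leukocyte ligand of P-selectin, went from 9.39 ± 3.65 to 20.49 ± 4.43 and 23.4 ± 3.93 (SD, n = 3). The summed level of the blood markers PTPRC, CD3E, CD14 and HBB lay between 10.9 and 25.6 in DMSO, between 17.9 and 24.6 in VHL-r and between 8.56 and 28.8 in R4VPL3-1. The part of such cells in these values was not tested. PCDH19 and CADM2, adhesion molecules of neurons, went from 3.24 ± 0.717 to 23.3 ± 3.71 and 28.5 ± 3.11 and from 8.45 ± 4.26 to 38.2 ± 6.33 and 32.3 ± 6.69.

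Other protein-coding members are genes of specialised tissues. TTN, the giant sarcomere protein of muscle (chr2:178525989-178830802, minus strand), had 0.91, 3.94 and 4.06 in DMSO, 57.0, 28.4 and 38.9 in VHL-r and 57.0, 49.7 and 68.5 in R4VPL3-1. Its annotated exons cover 118976 bases, so the treated mean amounted to 0.42 normalized counts per kb of exon, the lowest level per length of the 91 members. PYGM, the glycogen phosphorylase of muscle, had 1.82, 3.94 and 6.08 in DMSO, 33.0, 33.6 and 31.8 in VHL-r and 40.2, 27.9 and 35.3 in R4VPL3-1. MSH4, a meiotic mismatch-repair homologue that stabilises crossovers (chr1:75796882-75913242, plus strand), had 9.99, 21.6 and 23.3 in DMSO, 108, 97.7 and 133 in VHL-r and 134, 104 and 154 in R4VPL3-1. TEX14, a protein of germ-cell bridges, went from a DMSO mean of 19.01 to 55.9 and 58.5. The pancreatic lipase CEL went from 6.18 to 20.2 and 21.03, and BAAT, which joins bile acids to glycine or taurine in liver, from 9.22 to 24.6 and 28.99.

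By biotype, 49 of the 91 members were protein coding, 36 were lncRNAs, 5 were pseudogenes and 1 was of the annotation class TEC. The lncRNA share was 39.6%, against 15.2% of the 15221 annotated genes whose 9 libraries averaged 10 or more (hereafter the tested genes). It was below the 48.3% of the 1535 other tested genes with a DMSO mean under 20. A symbol was given in the table for all but 31 members, and 8 had names marking them as antisense to another gene. Per kb of exon, the 36 lncRNAs had a median treated level of 30.2 normalized counts and the 49 protein-coding members one of 10.0. This level depends on exon length, which had medians of 1303 and 3923 bases. Their median ratios to DMSO were close, at 3.02 and 3.12 in VHL-r and 3.38 and 3.40 in R4VPL3-1. The 5 members with the highest treated level per kb were PPP1R35-AS1 (213), PSMD6-AS1 (158), LINC02818 (152), ENSG00000241357 (129) and ENSG00000288699 (102), all with annotated exons of 654 bases or fewer.

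The lncRNA ENSG00000205890 (chr16:3032481-3039133, plus strand) had the largest ratio of the 91. It had 0, 0.98 and 2.03 normalized counts in DMSO, 86.1, 44.1 and 33.8 in VHL-r and 34.6, 46.8 and 35.3 in R4VPL3-1. The DMSO values rest on 3 reads in all, so its ratios to DMSO, 54.5 in VHL-r and 38.8 in R4VPL3-1, are imprecise. The same values chose the gene. It lies 4725 bases after the end of THOC6 and 6928 bases before the start of MMP25, all on the plus strand of chromosome 16, so a pair of members follow each other there. IL32, which begins 4570 bases after MMP25 on this strand, had 12.8 ± 5.56 in DMSO, 16.5 ± 7.39 in VHL-r and 12.3 ± 0.478 in R4VPL3-1 (SD, n = 3). THOC6 had 818 ± 76.6, 1085 ± 99.1 and 970 ± 64.6. It was called higher in both compounds, with limma log2 differences of 0.407 (adjusted p = 0.000554) in VHL-r and 0.247 (adjusted p = 0.0221) in R4VPL3-1.

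PPP1R35-AS1 and ENSG00000241357 overlap each other on the plus strand of chromosome 7 and lie further along that strand than a further member, PILRA. PPP1R35-AS1 was at 10.97 ± 1.17, 60.9 ± 6.11 and 68.2 ± 14.4 in DMSO, VHL-r and R4VPL3-1 (SD, n = 3). ENSG00000241357 had 2.72, 1.97 and 24.3 in DMSO and between 31.8 and 50.4 in the treated libraries. DMSO library 3 thus stood far above the other 2 controls, though below every treated library, as the rule demands. PPP1R35, which starts within 1 kb of PPP1R35-AS1 on the opposite strand, went from 291 in DMSO to 235 in VHL-r and 277 in R4VPL3-1, with a limma adjusted p of 0.046 for VHL-r and 0.72 for R4VPL3-1 against DMSO. PSMD6-AS1 overlaps PSMD6-AS2, which is no member because its DMSO mean was 42.7, and which went to 169 and 199 (log2 difference 1.98 with adjusted p 1.38e-07, and 2.19 with adjusted p 1.97e-08).

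The position of the members on their strand differed from that of other genes. A same-strand gene with any count ended within 10 kb before the start of the member, or overlapped it, for 67 of 91 members (73.6%), against 30.7% of the tested genes and 38.8% of the 1535 other low genes. With only tested genes as neighbours, the shares were 61.5%, 21.1% and 28.9%. A tested gene overlapped 17.6% of the members, 6.78% of the other low genes and 4.48% of the tested genes. One ended within 10 kb before 46.2%, 23.2% and 17.4%, and one began within 10 kb after 13.2%, 12.9% and 17.5%. Within 5 kb the shares were 27.5%, 14.9% and 11.2% upstream and 8.79%, 7.43% and 11.2% downstream. Within 50 kb they were 70.3%, 46.2% and 40.9% upstream and 41.8%, 33.7% and 40.9% downstream. Starts of an opposite-strand gene within 1 kb were no more frequent, at 17.6% of the members, 26.2% of the other low genes and 31.9% of the tested genes. These shares are descriptions of the chosen genes, with no test.

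**Figure D2:**
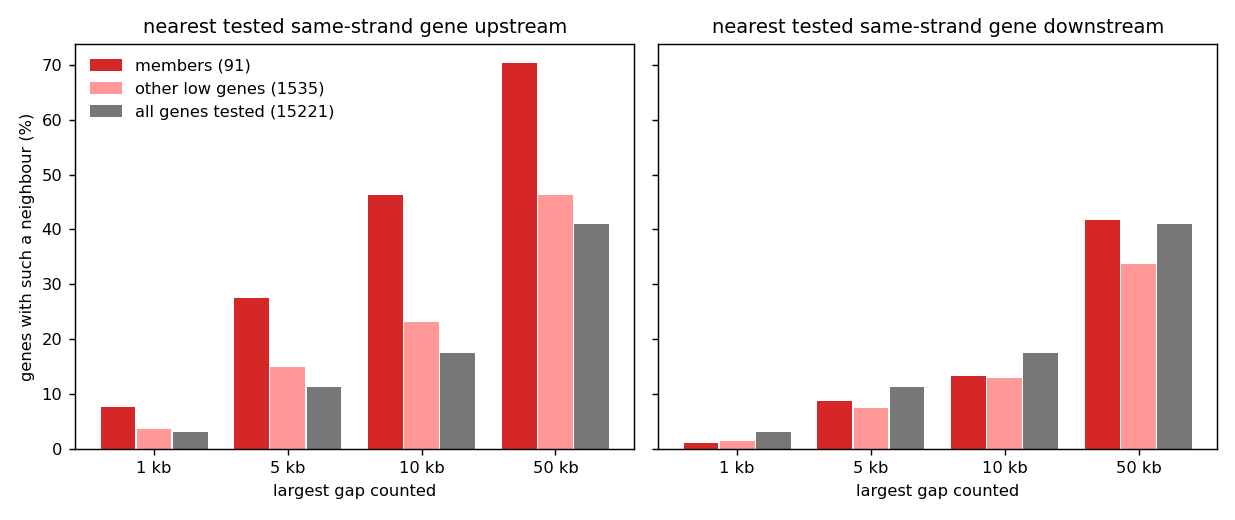
Share of genes, in percent, whose nearest tested same-strand gene lies within 1, 5, 10 or 50 kb upstream (left) or downstream (right), for the 91 members (red), the 1535 other tested genes with a DMSO mean under 20 (pink) and all 15221 annotated tested genes (grey). The members stand above both other sets at each upstream distance, for example 46.2% against 23.2% and 17.4% at 10 kb. Downstream the members stand at 13.2% against 12.9% and 17.5% at 10 kb, and at 41.8% against 33.7% and 40.9% at 50 kb.

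The shortest gaps behind a tested neighbour were 93 bases from FASTK to the lncRNA ENSG00000244151, 106 bases from NRBP1 to KRTCAP3, 167 bases from EXOSC6 to the pseudogene SMG1P7 (ENSG00000261556) and 251 bases from RPL18 to FAM83E. The whole stretch of GRCh38 between the annotated genes is printed for these 4, 5′ to 3′ on the members' strand, because it shows how little sequence separates a low member from a well expressed neighbour. Capitals mark TGTGT, a GT-rich pentamer of the kind found shortly after sites of poly(A) cleavage.
FASTK to ENSG00000244151, chr7:151076531-151076623, minus strand: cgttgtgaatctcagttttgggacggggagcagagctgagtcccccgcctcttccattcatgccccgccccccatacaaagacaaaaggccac
NRBP1 to KRTCAP3, chr2:27442260-27442365, plus strand: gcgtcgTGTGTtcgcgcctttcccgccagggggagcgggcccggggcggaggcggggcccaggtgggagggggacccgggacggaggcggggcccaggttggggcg
EXOSC6 to SMG1P7, chr16:70246611-70246777, minus strand: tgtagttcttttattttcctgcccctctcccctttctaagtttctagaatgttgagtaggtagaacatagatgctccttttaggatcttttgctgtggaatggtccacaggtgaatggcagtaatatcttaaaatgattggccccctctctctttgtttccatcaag
RPL18 to FAM83E, chr19:48615077-48615327, minus strand: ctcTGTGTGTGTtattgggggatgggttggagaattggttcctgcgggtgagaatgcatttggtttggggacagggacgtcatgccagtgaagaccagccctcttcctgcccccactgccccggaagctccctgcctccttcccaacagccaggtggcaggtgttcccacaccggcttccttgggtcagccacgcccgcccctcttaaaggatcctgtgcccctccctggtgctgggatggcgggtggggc

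The pentamer stood near the start of the stretch after NRBP1 and after RPL18 and was absent from the other 2 stretches. Each of the 4 upstream genes had a poly(A) hexamer within its last 50 annotated bases, starting 21 to 27 bases before the end: AATAAA in NRBP1 and EXOSC6, and ATTAAA in FASTK and RPL18. Over all the members, 41 tested genes that are no members themselves ended within 10 kb upstream of 1, and 33 of these (80.5%) had AATAAA or ATTAAA in their last 50 bases on their own strand. The share was 70.2% of the 2630 tested genes followed within 10 kb by another tested gene, and 69.8% of all 15221.

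The members just behind these genes were low where the neighbours were abundant. KRTCAP3, a keratinocyte-associated membrane protein, had 9.08, 1.97 and 12.2 normalized counts in DMSO, 26.02, 18.9 and 41.0 in VHL-r and 33.6, 22.9 and 22.5 in R4VPL3-1. NRBP1 stood at 3386 in DMSO, 3898 in VHL-r and 3746 in R4VPL3-1, a limma log2 difference of 0.20 (adjusted p = 0.00189) and 0.15 (adjusted p = 0.0179). FAM83E had 13.6, 4.92 and 13.2 in DMSO, 50.04, 39.9 and 53.3 in VHL-r and 41.1, 39.8 and 31.1 in R4VPL3-1, while RPL18, a protein of the large ribosomal subunit, stayed between group means of 20610 and 20890, with adjusted p of 0.81 and 0.928. ENSG00000244151 went from 16.5 ± 4.61 to 36.7 ± 8.12 and 36.7 ± 3.48 (SD, n = 3), with FASTK, a mitochondrial RNA-binding protein, at 1693, 1810 and 1846 (adjusted p of 0.21 and 0.0792). SMG1P7 went from 14.5 ± 7.55 to 39.2 ± 6.74 and 54.1 ± 8.81, with the exosome subunit EXOSC6 at 1554, 1402 and 1431 (adjusted p of 0.057 and 0.118). Of the annotated exon bases of SMG1P7, 78.6% are covered by same-strand exons of another gene, so its count is uncertain.

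Other members further behind their neighbours showed the same arrangement. TIGD3 begins 488 bases after DPF2, the lncRNA ENSG00000250075 510 bases after the centromere protein gene CENPC, and ENSG00000280311, the TEC member, 779 bases after POLE, the catalytic subunit of DNA polymerase epsilon. MSH4 begins 1795 bases after RABGGTB, ARTN 2154 bases after ST3GAL3 (which was under the filter of the test) and BAAT 2232 bases after MRPL50. PYGM begins 4631 bases after the splicing factor gene SF1, MAFA 6926 bases after ZC3H3, FGF18 7836 bases after NPM1 and RASD1 9167 bases after PEMT. NPM1, a nucleolar chaperone, had the highest level of these neighbours, 75350 normalized counts in DMSO and 77560 and 77290 in the treated groups (adjusted p of 0.532 and 0.553). SF1 stood at 13450, 14500 and 14050 (adjusted p of 0.153 and 0.425). RABGGTB was called higher in R4VPL3-1 (limma log2 difference 0.249, adjusted p = 0.00313) but not in VHL-r. CENPC was called higher in VHL-r (0.328, adjusted p = 0.00555) but not in R4VPL3-1. The other tested neighbours named here were called in neither compound.

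Over the 41 upstream neighbours, the median DMSO level was 1554 normalized counts, against 569 for all tested genes and 923 for the upstream tested neighbours within 10 kb of any tested gene. Their own differences from DMSO had small medians but ran from -0.192 to 0.813 in VHL-r and from -0.132 to 0.855 in R4VPL3-1. In VHL-r the median was 0.10 on the log2 scale, with 11 called higher, 1 lower and 29 not called. In R4VPL3-1 it was 0.07, with 11 higher, 0 lower and 30 not called. Of all tested genes, 10.3% were called higher and 9.51% lower in VHL-r, and 13.1% higher and 11.8% lower in R4VPL3-1. Higher calls were thus more frequent among these neighbours than over all tested genes, and lower calls rarer. The neighbour with the highest estimate in R4VPL3-1 was KLHL25, at 0.86 (adjusted p = 5.39e-07), followed by a gap of 9044 bases to ENSG00000259407. No neighbour differed from DMSO by as much as its member in either compound, where the members' log2 differences, fixed by the choice, began at 0.94.

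**Figure D3:**
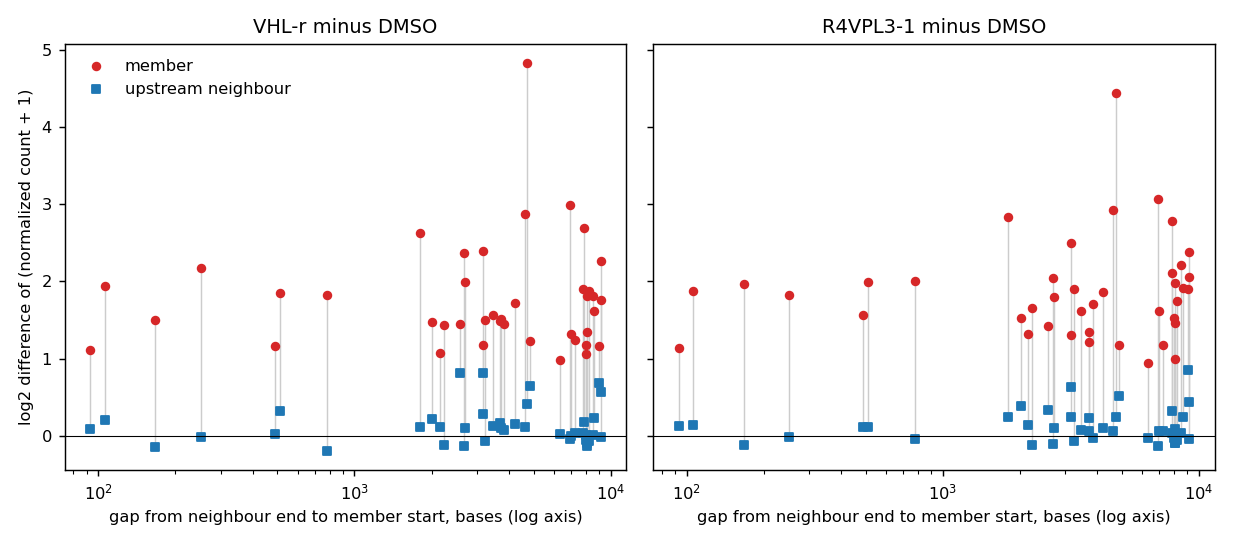
Log2 difference from DMSO of 41 members (red circles) and of the tested gene that ends within 10 kb upstream of each (blue squares), joined by a grey line, against the gap in bases on a log axis, for VHL-r (left) and R4VPL3-1 (right). The neighbours lie between -0.19 and 0.86, and every member lies above its own neighbour, the member side being fixed by the choice of genes.

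The distance was also read in genes that the rule did not take: tested genes with a mean under 50 that are no members. This division was made after the data had been seen, and it is a description. Where a tested same-strand gene ended within 1 kb upstream, 17.5% of 103 such genes were called higher in VHL-r and 21.4% in R4VPL3-1, and their median log2 differences were 0.27 and 0.37. At 1 to 5 kb the shares were 14.6% and 15.4% of 280, at 5 to 10 kb 9.8% and 17.6% of 204, at 10 to 50 kb 4.81% and 8.29% of 603, and over 50 kb 2.8% and 4.78% of 1714. Shares of higher calls were thus larger within 10 kb than at over 50 kb behind an upstream gene, where the median differences were -0.04 in each compound. By distance to a tested gene starting downstream, the shares were 10.9% and 12.7% of 55 genes within 1 kb, 10.7% and 12.6% of 159 at 1 to 5 kb and 5.26% in each compound of 133 at 5 to 10 kb. They were 7.54% and 10.3% of 610 at 10 to 50 kb and 4.11% and 6.99% of 1946 over 50 kb. A further 186 genes that overlap a tested gene on their strand are in none of these distance groups. Of those, 10.8% were called higher in VHL-r and 17.2% in R4VPL3-1. Summed over the 103 genes behind a gap of up to 1 kb, the libraries had 2060, 2027 and 2252 normalized counts in DMSO, 2619, 2575 and 2648 in VHL-r and 2828, 2611 and 2557 in R4VPL3-1, with no overlap between DMSO and the treated libraries. The sums also did not overlap for the 55 genes within 1 kb before a tested gene, at 1246 to 1347 in DMSO and 1375 to 1465 in the treated libraries. Nor did they for the 186 genes that overlap a tested gene, at 3667 to 4101 and 4252 to 4887. Over the 1714 genes at over 50 kb behind an upstream gene the sums overlapped, at 39781 to 43948 in DMSO, 39843 to 40634 in VHL-r and 39495 to 41504 in R4VPL3-1.

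**Figure D4:**
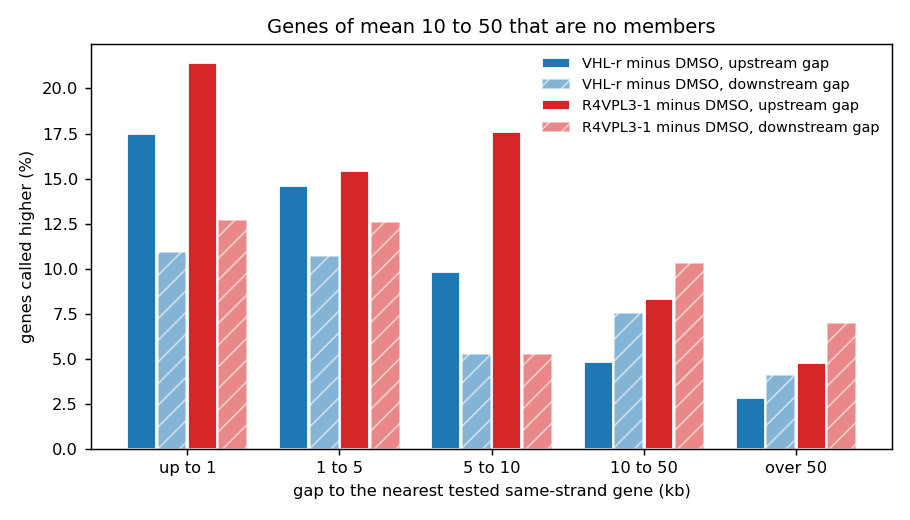
Percent of genes with a mean of 10 to 50 that are no members and were called higher than DMSO, by the gap in kb to the nearest tested same-strand gene upstream (filled) or downstream (hatched), in VHL-r (blue) and R4VPL3-1 (red). Shares by upstream gap run from 17.5% and 21.4% within 1 kb to 2.8% and 4.78% over 50 kb. Genes that overlap a tested gene on their strand are not shown.

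A different arrangement was overlap. For 11 members, over 50% of the annotated exon bases lie under exons of other genes on the same strand, which is 12.1% of the members, against 6.25% of the other low genes and 1.8% of the tested genes. Among these are HNRNPUL2-BSCL2, NME1-NME2, ENSG00000285238, which shares exons with CHD4, and ENSG00000288699, which shares them with VCP and FANCG. HNRNPUL2-BSCL2 went from 10.0 to 29.7 and 27.4 in VHL-r and R4VPL3-1, and NME1-NME2 from 10.0 to 28.1 and 22.7. NME1 and NME2 themselves were listed at 0 in all 9 libraries, BSCL2 at 0 to 5.00 and CHD4, a chromatin remodeller, at 5.45 to 17.4; how the counting assigned reads on shared exons is not known, and these members' counts are uncertain. Besides these, IL9RP3, POLR2J4, CEL, FAM209A, ZGLP1 and ENSG00000260158 had more than 20% of their 100-base windows also present in transcripts of other genes, and their counts are uncertain for that reason. None of the 100-base windows occurred in another gene for 64 members.

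The comparison of R4VPL3-1 with VHL-r asks whether the full molecule and its VHL-binding part differed in these genes at the same dose and time. The rule set no condition on this difference, but by asking both compounds to pass it kept out 30 rows that met the thresholds in VHL-r alone and 66 that met them in R4VPL3-1 alone. By limma on log2(normalized count + 1), 2 of 91 members were called at an adjusted p of at most 0.05, both higher in R4VPL3-1. The shares over all tested genes were 1.87% in either direction and 1.14% higher in R4VPL3-1, so 2.2% of the members is near the background. The median difference of the members was 0.13 on the log2 scale, against -0.01 over all 15230 genes tested, and 62 of the 91 estimates (68.1%) were above 0, against 47.6% of all genes tested. Without the first R4VPL3-1 library the median fell to 0.05. All 3 R4VPL3-1 libraries stood above all 3 VHL-r libraries for 8 members (8.79%, against 6.99% of all genes tested), and below them for 0 (against 7.11%). At an unadjusted p under 0.05 there were 5 members (5.49%), all higher in R4VPL3-1, against 9.9% of all genes tested in either direction.

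GIPC2, a PDZ-domain scaffold protein (chr1:77979542-78138444, plus strand), had 9.99, 12.8 and 7.10 normalized counts in DMSO, 24.0, 34.7 and 27.7 in VHL-r and 84.0, 72.6 and 72.8 in R4VPL3-1. All 3 R4VPL3-1 libraries stood above all 3 VHL-r libraries. R4VPL3-1 exceeded VHL-r by 1.39 on the log2 scale (95% interval 0.86 to 1.92, limma adjusted p = 0.00249). Its annotated span begins inside DNAJB4, a heat-shock co-chaperone gene on the same strand, although exons of other genes cover only 2% of its exon bases. DNAJB4 itself was counted at 0.93 to 4.00 in all 9 libraries, while DNAJB1, a co-chaperone of the same family with no such overlap, went from 6580 in DMSO to 10360 in VHL-r and 48180 in R4VPL3-1. Whether DNAJB4 transcripts added to the GIPC2 count was not tested. The lncRNA ENSG00000287064 (chr1:154671593-154678345, plus strand) had 17.3, 17.7 and 23.3 in DMSO, 51.0, 45.2 and 50.2 in VHL-r and 105, 88.6 and 91 in R4VPL3-1. Its difference was 0.94 (95% interval 0.53 to 1.35, adjusted p = 0.00891), and the nearest gene before it on the strand, CHRNB2, ended 91579 bases away. The call for ENSG00000287064 was lost without the second VHL-r library (0.89, adjusted p = 0.0642) and without the first R4VPL3-1 library (0.87, adjusted p = 0.0883), whereas that for GIPC2 was kept in both fits.

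**Figure D5:**
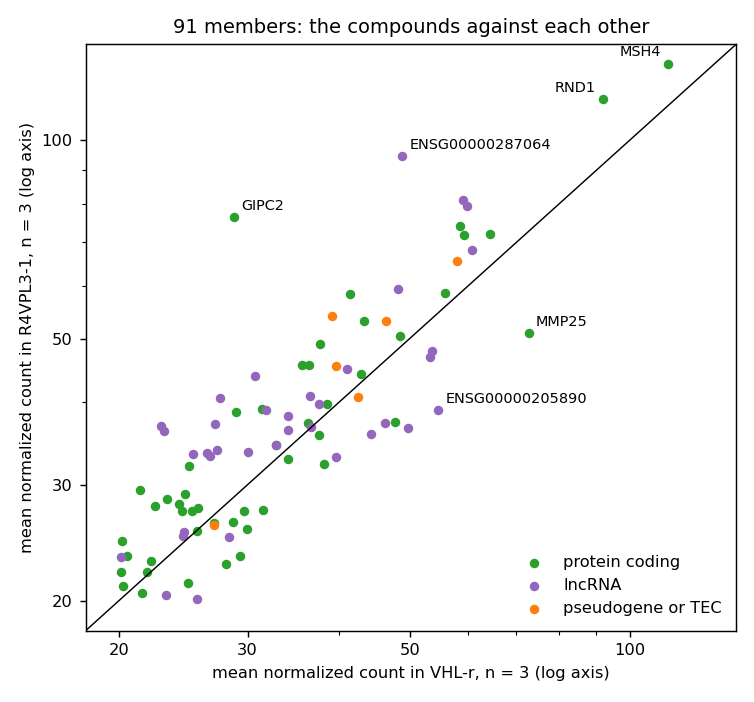
Mean normalized count of the 91 members in VHL-r (x) and R4VPL3-1 (y), 3 libraries each, both axes log, coloured by biotype, with the line of equal values. GIPC2 (28.8 and 76.5) and ENSG00000287064 (48.8 and 94.7) lie furthest above the line, and MMP25 (72.8 and 51.0) is the member with the lowest difference.

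For the remaining 89 members the test does not show that the compounds acted alike. Over all 91, the 95% interval of the difference lay within 1 log2 unit on both sides for 68 members and reached that size for 23, and its width had a median of 1.29. MMP25 had the lowest estimate, -0.50 (interval -1.03 to 0.03, adjusted p = 0.56), and its neighbour ENSG00000205890 had -0.38 (interval -1.22 to 0.46, adjusted p = 0.882). TTN was at 0.53 (interval -0.22 to 1.28), RND1 at 0.36 (interval -0.11 to 0.82), MSH4 at 0.20 (interval -0.31 to 0.72) and POU3F1 at 0.17 (interval -0.69 to 1.03), none past the threshold.

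Of the response genes listed by pathway, 2 were members: EGLN3 from 35 HIF targets and CISH from 26 genes of cytokines, chemokines and their feedback. Few listed genes could meet the rule, since a DMSO mean under 20 was found for 5 of the HIF targets and 6 of the cytokine genes. EGLN3 is a prolyl hydroxylase that marks HIF-alpha for VHL and is itself raised by HIF (chr14:33924227-34462774, minus strand). It had 7.26, 13.8 and 14.2 in DMSO, 39.0, 33.6 and 29.7 in VHL-r and 31.8, 35.8 and 31.1 in R4VPL3-1. Of the 31 other tested HIF targets, 8 were called higher and 5 lower in VHL-r, and 17 higher and 3 lower in R4VPL3-1, with median log2 differences of 0.02 and 0.21. The shares over all tested genes were 10.3% higher and 9.51% lower in VHL-r, and 13.1% and 11.8% in R4VPL3-1. CISH, a feedback inhibitor of cytokine receptors that STAT5 induces (chr3:50606489-50611774, minus strand), had 13.6, 18.7 and 21.3 in DMSO, 26.02, 49.4 and 53.3 in VHL-r and 48.6, 36.8 and 47.1 in R4VPL3-1. Of the 21 other tested genes of its list, 2 were called higher and 11 lower in VHL-r and 1 higher and 11 lower in R4VPL3-1, with medians of -0.615 and -0.874.

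CISH begins 107707 bases after the nearest gene on its strand, ENSG00000213587, and the 250 bases before its start are printed because they hold the STAT-type motif several times. They lie within the annotated span of MAPKAPK3 on the opposite strand (chr3:50611520-50649291). MAPKAPK3 stood at 1386 in DMSO, 1326 in VHL-r and 1246 in R4VPL3-1 (limma adjusted p against DMSO of 0.508 and 0.0593). The sequence is that of RefSeq on GRCh38.p14, chr3:50611775-50612024, minus strand, 5′ to 3′, with TTCNNNGAA in capitals (the motif reads the same on both strands).
CISH promoter: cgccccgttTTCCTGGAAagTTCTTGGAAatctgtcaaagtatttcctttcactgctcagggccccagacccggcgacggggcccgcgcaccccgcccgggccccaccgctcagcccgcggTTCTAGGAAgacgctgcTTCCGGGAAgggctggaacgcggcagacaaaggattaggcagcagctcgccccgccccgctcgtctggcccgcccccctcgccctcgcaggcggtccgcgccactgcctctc
It holds 4 matches. In the windows from 250 bases before to 50 after a RefSeq start, TTCNNNGAA was found in 7.66% of 35114 promoters and in 4 of 42 promoters of 38 members with an entry. On both strands, ACGTG, the core bound by HIF, was in 7 of the 42 (16.7%, against 21.4% of all), TGANTCA in 4 (9.52% against 7.71%), GAANNTTC in 2 (4.76% against 6.77%) and TATAAA in 6 (14.3% against 11.5%). A match is a description of the letters and not a bound site.

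The other lists held no member, and few of their genes had a DMSO mean under 20: 1 of 34 immediate early genes, 8 of 27 stress response genes, 1 of 15 genes of the BET and P-TEFb list and 10 of 38 of the developmental list. Of 33 tested immediate early genes, 15 were called higher and 11 lower in VHL-r and 18 and 9 in R4VPL3-1. Of 20 tested stress response genes, 11 were called higher and 1 lower in VHL-r and 16 and 1 in R4VPL3-1, with median log2 differences of 0.37 and 1.62. Of the 15 genes listed as rising on BET or P-TEFb perturbation, 6 were called higher and 2 lower in VHL-r and 8 and 2 in R4VPL3-1. Of 32 tested developmental transcription factors and BMP, Notch and Wnt response genes, 6 were higher and 9 lower in VHL-r and 4 and 14 in R4VPL3-1. Beside these counts, 10.3% of all tested genes were called higher and 9.51% lower in VHL-r, and 13.1% and 11.8% in R4VPL3-1.

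The edges of the choice were close. ENSG00000287064, TEX14 and ENSG00000287419 were the members with the highest DMSO means, 19.4, 19.01 and 18.6, and the rows just outside were ENSG00000256448 at 20.01, CPT1C at 20.3 and LAG3 at 20.3, with treated means of 105 and 107, 43.3 and 41.3, and 61.0 and 77.1. The lower treated mean was smallest for ENSG00000288612 and ENSG00000260350, at 20.1 each, with ENSG00000288000 at 20.2, and ENSG00000286379 just missed at 19.8. ZGLP1 and DAAM2-AS1 stood at 2.04 times DMSO in the lower compound and BICDL1 at 2.06, with ENSG00000290846 at 1.999 and ENSG00000249319 at 1.99 just outside. A further 5 rows failed only because a treated library did not exceed all DMSO libraries: MED15P9, GP6-AS1, ANKHD1-EIF4EBP3, THEGL and ENSG00000291276. In the opposite direction, the mirrored rule (at least 20 in DMSO, under 20 in both compounds, at least 2-fold lower, no overlap) found 25 rows.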

How the data were processed

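Single 100-base reads came from strand-specific poly(A) libraries. The authors used STAR and GRCh38 for alignment, took gene counts from htseq-count and divided by DESeq2 1.36.0 size factors; the deposited signal is that normalized count with 2 decimals. How htseq-count treated reads on overlapping genes is not given in the sources used here. Dividing by the worth of 1 read gave whole reads for 100% of values. limma 3.58.1 (R 4.3.3, trend option) was fitted to log2(value + 1) of all 9 libraries over 15230 genes with a mean of at least 10, with Benjamini-Hochberg adjustment and calls at 0.05. Every member passes that filter by the rule itself. Simulated libraries with known changes were used to test the fit. Strand, exons and neighbours came from GENCODE 44 by gene identifier (62639 of 62710 rows and all 91 members matched), coordinates from the deposited table. A neighbour is the nearest same-strand gene with a value above 0, within 10 kb unless stated. Edge-to-edge gaps are in bases.

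Members, lists and alternatives were chosen with earlier results of these data known. The rule took 93 rows, of which 2 are not reported here, and 1 of the 91 is counted but not described. Named members are those with the highest ratios, called between the compounds, in a fixed list, closest to a neighbour, nearest a threshold, highest per length, or coding for transcription factors, receptors or secreted proteins. Other genes of a member's locus were named after their values were seen. Alternatives were other pseudocounts, filters, TMM rescaling, edgeR 4.0.16, DESeq2 1.42.0, a replicate block and each library left out.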

Additional observations from a re-analysis of the deposited data

How the results depend on the processing

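The number of members followed its thresholds: 42 with a DMSO mean under 10, 46 at 3 times DMSO and 11 with treated means of at least 50, all of them among the 91. It was 126 with a DMSO mean under 40, 132 at 1.5 times and 93 after TMM rescaling. Leaving out each library in turn gave 83 to 119 rows, the highest without the third DMSO library, and at least 80 of the 91 were among them.

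Between the compounds, 1 member, ENSG00000287064, was called when genes of a mean of at least 50 were tested, where only 5 members remained, GIPC2 not among them, and their median difference was 0.403. Leave-one-out fits called 1 to 2 members, with medians of 0.05 to 0.178. POU3F1, not called in any fit, ran from -0.033 to 0.312 over the leave-one-out fits and reversed to -0.033 without the second VHL-r library, and the cause was not tested. GIPC2 stayed called in each of the 18 alternatives that tested it, with differences of 1.27 to 1.53. edgeR and DESeq2 on the recovered reads called the same 2 members. With the replicate block the 2 members were called as well, and 389 genes in all against 285 without it. Same-numbered R4VPL3-1 and VHL-r libraries correlated at 0.121, 0.013 and 0.112 in their deviations from the group means, and differently numbered ones at -0.148 to 0.032. For VHL-r and DMSO the same numbers gave 0.046, 0.03 and 0.096, and different numbers -0.06 to 0.016. For R4VPL3-1 and DMSO the same numbers gave -0.006, 0.021 and 0.06, and different numbers -0.113 to 0.098. Whether replicate numbers pair the samples is therefore not settled, and the main fit took no pairing. With gaps of 5 or 50 kb, or tested neighbours only, 55, 79 and 56 members had a same-strand neighbour upstream or overlapping, against 67. The members rest on few reads, with a median of 31 over the 3 DMSO libraries, and the effect of depth on their intervals was not tested.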
